A study of Homo sapiens with 30 samples.

Results

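Tissue factor and the plasminogen system are covered here by 9 genes, F3, TFPI, TFPI2, THBD, PLAU, PLAUR, PLAT, SERPINE2 and SERPINB2, taken as the genes whose name in the array files is one of these, out of 43972 gene names on the array. They have 13 probes, all of which are on every array. BEAS-2B cells, which are immortalized and come from human bronchial epithelium, were grown at the air-liquid interface, where the upper side faces air. In the pollen groups 10 mg of whole birch pollen was dispersed over the cells with pressured air, and in the air groups the same was done with the pollen held back by a mesh. The 5 times of collection were 10 min and 55 min, 2h25 min and 6h50 min, and 24 h, with 3 arrays in each of the 10 groups and 30 arrays in all. All groups come from this 1 cell line, so that they carry the same genotype, and per the methods the exposures were repeated independently on different days. The labels do not say which arrays belong to which day.

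Tissue factor, the product of F3, is the membrane protein that starts blood coagulation by binding factor VII, and in the airways it is made by epithelial cells, among others. TFPI blocks the complex of tissue factor and factor VII, TFPI2 is a related inhibitor of plasmin and other proteases, and thrombomodulin (THBD) turns thrombin from a clotting enzyme into an activator of protein C. On the other side of the system, urokinase (PLAU) and tissue plasminogen activator (PLAT) convert plasminogen into plasmin, which dissolves fibrin and cleaves matrix. PLAUR is the receptor that holds urokinase at the cell surface, and SERPINE2 and SERPINB2 are inhibitors of plasminogen activators.

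Promoter windows of the members were looked up in the RefSeq table of GRCh38.p14, which holds 9 windows of 7 members, while THBD and PLAT have no entry in it. The 250 bases before the start are shown for F3, the 1 member called in pollen against air, for TFPI2, whose pollen arrays also lay above the air arrays at 2h25 min, and for TFPI, which binds the product of F3, so that the windows can be read side by side. All 3 are on the minus strand and run 5′ to 3′, at chr1:94541760-94542009 for F3, chr7:93890754-93891003 for TFPI2 and chr2:187554436-187554685 for TFPI. Capitals mark matches on either strand to the letters of AP-1 (TGANTCA), EGR (GCGNGGGCG) or SP1 (GGGCGG), or to the NF-kB consensus.
F3: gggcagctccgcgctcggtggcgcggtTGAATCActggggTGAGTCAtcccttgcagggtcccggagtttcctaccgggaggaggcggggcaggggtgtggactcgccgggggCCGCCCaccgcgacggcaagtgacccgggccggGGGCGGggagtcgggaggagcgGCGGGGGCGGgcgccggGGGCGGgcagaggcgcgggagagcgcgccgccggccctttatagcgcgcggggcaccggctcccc
TFPI2: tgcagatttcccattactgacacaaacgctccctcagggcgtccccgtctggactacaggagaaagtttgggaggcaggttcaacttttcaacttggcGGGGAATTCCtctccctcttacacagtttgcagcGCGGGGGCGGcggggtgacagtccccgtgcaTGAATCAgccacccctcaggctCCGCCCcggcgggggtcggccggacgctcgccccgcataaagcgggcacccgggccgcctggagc
TFPI: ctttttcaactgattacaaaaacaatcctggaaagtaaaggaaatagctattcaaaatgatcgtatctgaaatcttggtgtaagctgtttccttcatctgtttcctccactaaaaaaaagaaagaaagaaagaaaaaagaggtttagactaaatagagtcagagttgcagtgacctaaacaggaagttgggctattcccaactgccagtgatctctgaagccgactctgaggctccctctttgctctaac
In F3 the matches to AP-1 begin at -223 and -210, counted in bases from the start, those to SP1 at -137, -104, -78 and -65, and that to EGR at -82. The EGR match overlaps the SP1 match at -78. In TFPI2 the order is NF-kB at -152, EGR at -118, SP1 at -114, AP-1 at -87 and SP1 at -65, and EGR overlaps the first SP1 match. The TFPI window holds no match to these letters or to the SRF consensus. The windows of SERPINE2 are not shown, though its pollen arrays also lay above the air arrays at 2h25 min. They hold SP1 matches only, at -230, -183 and -50. AP-1 was matched in 4 of the 9 member windows (F3, TFPI2, SERPINB2 and PLAUR) and in 6.57% of all 35116 windows. EGR was matched in 3 and in 8.41%, SP1 in 5 and in 42.6%, NF-kB in 1 and in 5.21%, and SRF in 0 and in 1.16%. These are matches of letters and not measured binding.

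On these Agilent arrays a single dye, Cy3, makes a spot brighter the more RNA it binds. Levels are given on the log2 scale relative to the 75th percentile of an array over the probes on both array designs in the series, so that 0 is the brightness of that percentile. Brightness also depends on the probe. Levels of different probes were therefore not compared, except to choose a gene's brightest probe and in sums of marker probes. Tests were run on probes that some group had well above background on each of its 3 arrays, which left 32100 probes, and 11 probes of 8 members. Both SERPINB2 probes were well above background on 0 of 30 arrays. The software for the tests was limma, and "called" means a change of at least 1.1-fold with an adjusted p, by Benjamini and Hochberg over all probes tested, under 0.05. Arrays of RNA from all cells of a culture cannot tell fewer cells expressing a gene from less RNA per cell. The epithelial markers KRT8, KRT18, KRT19, KRT7, EPCAM, CDH1, KRT5 and KRT17 passed the background limit on every array, as did 1 of 5 endothelial, 2 of 3 leukocyte, 1 of 4 platelet and 3 of 5 fibroblast markers. PECAM1, PPBP, COL3A1 and LUM were above it on 0 arrays. The arrays lie on 5 slides, and all arrays of pollen and air with the same number share a slide except replicate 1 of 55 min. That pollen array is on another array design and lies on a slide of its own.

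F3 was higher in pollen than in air at 2h25 min, where it also had its highest level. Its log2 level in pollen was then 1.65, 2.18 and 1.54 in replicates 1 to 3. In air it was 0.87, 0.99 and 1.20. Every pollen array was above every air array. The mean was 1.79 ± 0.34 (SD, n = 3) in pollen and 1.02 ± 0.17 (SD, n = 3) in air, a log2 difference of 0.77 (SE 0.14, 95% CI 0.48 to 1.06) or 1.70-fold, and limma called it with an adjusted p of 0.0462. It was the only 1 of the 8 members tested that was called at this time, against 0.0343% of all probes. The probe lies at chr1:94995080-94995139 on hg19, on the minus strand, as the array file gives it for the transcript NM_001178096.

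The call of F3 at 2h25 min lay close to the threshold. With the replicate number as a block, the difference stayed at 0.77 with a limma adjusted p of 0.105. Leaving out 1 of the 6 arrays gave differences from 0.58 without pollen replicate 2, the array with the highest level, to 0.89 without pollen replicate 3. F3 was called in only 1 of these 6 fits, that without pollen replicate 3. The F3 spot of air replicate 1, the lowest of the air arrays, lies in an area of the array whose median was 0.33 log2 units below the usual values of its probes, and its part in the result was not tested beyond leaving it out. Without spots in such areas the difference was 0.69 with a limma adjusted p of 0.264. Within the slide that holds replicates 1 and 2 of both groups the difference was 0.98, and on the slide with replicate 3 it was 0.34.

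**Figure D1:**
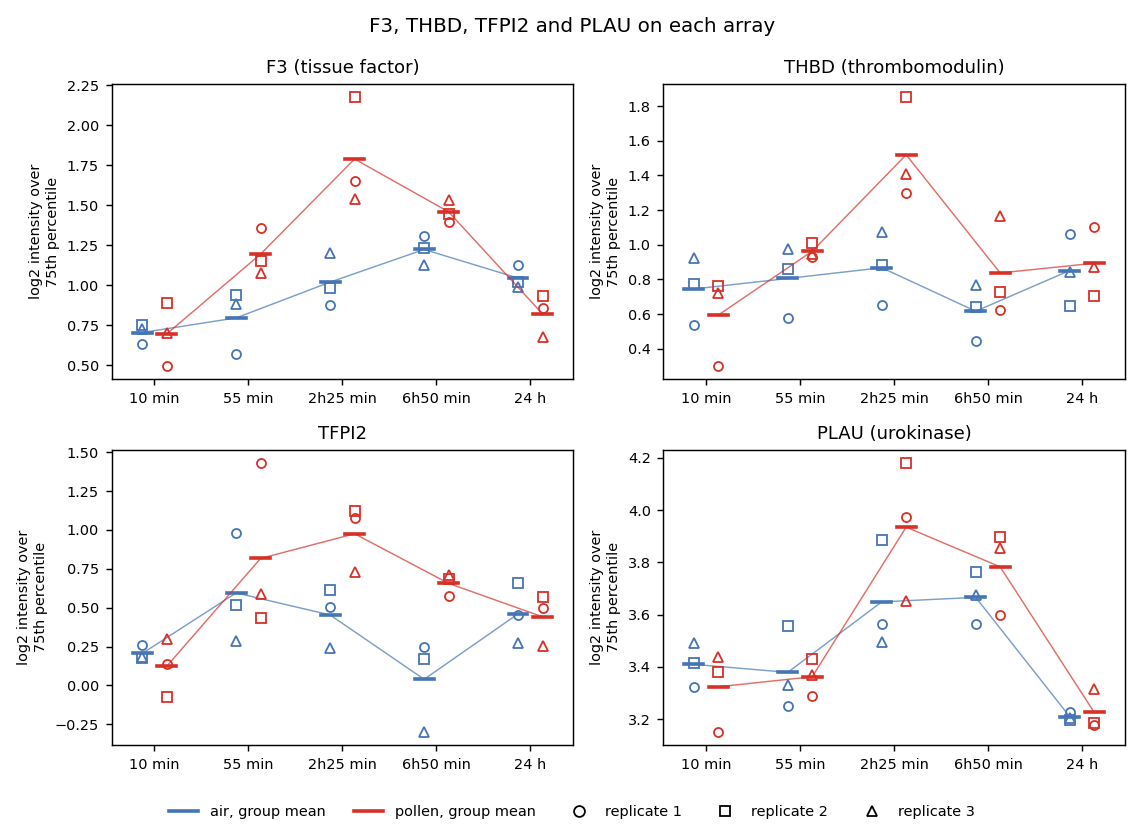
Log2 level relative to the 75th percentile of the array (y axis) of F3, THBD, TFPI2 and PLAU at the 5 times (x axis, not to scale) in air and pollen. Each symbol is 1 array, shaped by replicate number, bars are group means and thin lines join them. For F3 the 3 pollen arrays at 2h25 min lie between 1.54 and 2.18, above the air arrays, and at 24 h they lie below them.

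The other times were read for F3 in the same way. At 10 min the levels were 0.50, 0.89 and 0.70 in pollen and 0.63, 0.76 and 0.73 in air. The groups overlapped, and 0 of the 8 members were called, as were 0% of all probes. At 55 min the levels were 1.36, 1.15 and 1.07 in pollen and 0.57, 0.94 and 0.88 in air. The groups did not overlap, but the difference of 0.40 (SE 0.14) was not called, with a limma adjusted p of 0.920, and it was -0.016 when each array was scaled over its own probes instead of the shared ones. The highest of these pollen arrays, replicate 1, is the one of the other design. Of the members 0 were called at 55 min and of all probes 0.00312%. Replicates 2 and 3 of both groups share a slide, and over these alone the difference at 55 min was 0.20.

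At 6h50 min F3 was at 1.40, 1.45 and 1.54 in pollen and at 1.31, 1.24 and 1.13 in air. The groups lay close to each other without overlap, with a difference of 0.24 (SE 0.14, limma adjusted p of 0.816). At 24 h the order was the other way round, with 0.85, 0.93 and 0.67 in pollen and 1.13, 1.02 and 0.99 in air. The difference was -0.22 (SE 0.14, limma adjusted p of 1.00), and pollen was lower in 3 of 3 pairs of arrays with the same number. At 6h50 min 0 members were called and 0.0436% of all probes, and at 24 h 0 members and 0.00312%.

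The effect of pollen on F3 differed by -0.99 (SE 0.20, 95% CI -1.40 to -0.58) between 24 h and 2h25 min, a comparison chosen after the values of F3 had been seen, and limma did not call it, with an adjusted p of 0.299. The called probes were 0.00623% of all in that comparison, and 0 of the members. Between neighbouring times the effect on F3 differed by 0.41 (SE 0.20) from 10 min to 55 min, by 0.37 (SE 0.20) from 55 min to 2h25 min, by -0.53 (SE 0.20) from 2h25 min to 6h50 min and by -0.46 (SE 0.20) from 6h50 min to 24 h. Of the 8 members 0 were called in each of these 4 comparisons, against 0%, 0%, 0.00312% and 0% of all probes.

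In order of its mean level, F3 in pollen went from 2h25 min (1.79) over 6h50 min (1.46), 55 min (1.19) and 24 h (0.82) to 10 min (0.70). Of the steps between neighbouring times, the fall of 0.64 on the log2 scale from 6h50 min to 24 h was called, with a limma adjusted p of 0.00133. The differences of 0.50 from 10 min to 55 min, of 0.59 from 55 min to 2h25 min and of -0.33 from 2h25 min to 6h50 min were not, with limma adjusted p of 0.0924, 0.0957 and 0.0768. In air the means were 0.70 at 10 min, 0.80 at 55 min, 1.02 at 2h25 min, 1.22 at 6h50 min and 1.05 at 24 h, and 0 of the 4 steps was called for F3. From 10 min to 24 h F3 was 0.34 (SE 0.14) higher in air, with a limma adjusted p of 0.0604.

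THBD, like F3, had all pollen arrays above the air arrays at 2h25 min, but was not called. Its levels were 1.30, 1.85 and 1.41 in pollen and 0.65, 0.88 and 1.07 in air. The groups did not overlap, and the difference was 0.65 (SE 0.18, 95% CI 0.29 to 1.02) with a limma adjusted p of 0.550. Pollen was higher in 3 of 3 pairs, by 0.65, 0.97 and 0.33. With the replicate block its limma adjusted p was 0.0566. At 10 min the difference was -0.15 (SE 0.18), at 55 min 0.16 (SE 0.18), at 6h50 min 0.22 (SE 0.18) and at 24 h 0.04 (SE 0.18), and the groups overlapped at each of these times. In pollen THBD fell by 0.68 on the log2 scale from 2h25 min to 6h50 min, which limma called with an adjusted p of 0.00567, and in air it changed by -0.25 (SE 0.18), which was not called. The difference between these changes, -0.43, was not called. Its limma adjusted p was 0.376 with the replicate block and 0.882 with slide as a random block. The call in pollen was lost under 2 of 16 alternatives. Some of the 16 could not remove it, since they exchange probes of other genes or drop the fold limit.

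Of the inhibitors on the coagulation side, TFPI2 had every pollen array above every air array at 2h25 min and at 6h50 min, without being called. Its levels at 2h25 min were 1.08, 1.12 and 0.73 in pollen and 0.51, 0.61 and 0.24 in air. At 6h50 min they were 0.57, 0.69 and 0.71 in pollen and 0.25, 0.17 and -0.30 in air. The lowest of these was air replicate 3, which lay apart from the other air arrays. The differences were 0.52 (SE 0.21) and 0.62 (SE 0.21), with limma adjusted p of 1.00 and 0.340. The difference at 6h50 min was 0.40 in the deposited table and 0.45 without air replicate 3. At 55 min the levels spread most, from 0.43 to 1.43 in pollen and from 0.29 to 0.98 in air, with replicate 1 the highest in both groups. At 24 h the difference was -0.02 (SE 0.21). The summed level of the leukocyte markers was also higher in pollen at 6h50 min, from -0.37 to -0.11 against -0.91 to -0.77 in air. This sum rests mostly on CD14, at -0.99 to 0.28 over the arrays, with PTPRC at -6.07 to -3.62. At 24 h the sum was higher in pollen too, from -0.42 to -0.38 against -0.73 to -0.63 in air. Its part in these results was not tested.

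TFPI has 3 probes, each given for a different transcript in the array file, and none was called in pollen against air at any time. The probe for NM_006287 was at 1.55, 1.48 and 1.37 in pollen and at 1.24, 1.37 and 1.17 in air at 55 min, where the groups met at 1.37 without crossing, with a difference of 0.21 (SE 0.17). At 24 h it was at 0.67, 0.76 and 0.72 in pollen, below 0.95, 1.02 and 0.85 in air, with a difference of -0.22 (SE 0.17). Between times TFPI differed more. The probe for NM_001032281 was at -0.72, -0.16 and -0.18 in air at 10 min and at -1.93, -1.98 and -1.57 at 24 h. In pollen it was at -1.06, -0.18 and -0.30 at 10 min and at -1.80, -1.88 and -1.76 at 24 h. It was lower on every array at 24 h, by 1.47 and 1.30 on the log2 scale, with limma adjusted p of 3.19e-05 and 0.000182. Summed levels of markers also went lower without overlap over this span, those of the epithelial list from between 7.99 and 8.34 to between 7.10 and 7.48 in air and from between 7.93 and 8.18 to between 7.25 and 7.50 in pollen. Those of the fibroblast list went from between -0.43 and -0.22 to between -1.86 and -1.64 in air and from between -0.43 and -0.20 to between -1.64 and -1.49 in pollen. Each of these sums weighs its brightest probes most. In the epithelial list these were KRT7 (5.88 to 7.48 over the arrays) and KRT18 (5.57 to 6.32). In the fibroblast list they were COL1A1 (-2.62 to 1.00) and PDGFRB (-3.84 to -0.66). The part of the sums in the differences at 24 h was not tested. Of the 8 members, each by its brightest probe, 1 was called from 10 min to 24 h in air (PLAT) and 1 in pollen (TFPI, by the probe for NM_006287), against 37.5% and 35.3% of all probes. With slide as a random block the call of PLAT was lost (limma adjusted p of 0.0962), as it was without air replicate 2 of 10 min (-0.38, limma adjusted p of 0.0932).

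The other TFPI probes were lower at 24 h as well. From 10 min to 24 h the probe for NM_006287 differed by -0.41 (SE 0.17) in air, with a limma adjusted p of 0.0541, and by -0.58 (SE 0.17) in pollen, which was called. The probe for ENST00000481132 differed by -0.40 (SE 0.15) and -0.55 (SE 0.15), and both were called, but with slide as a random block the call in air was lost (limma adjusted p of 0.115). All arrays of 10 min lie on 1 slide and all of 24 h on another, so that slide and time cannot be told apart here. On the slide that holds the 24 h arrays and replicate 3 of 2h25 min, the probe for NM_001032281 was 1.60 lower at 24 h in air and 1.57 lower in pollen. With slide as a random block the call of that probe was kept in both groups. From 6h50 min to 24 h the probe for NM_006287 was called lower in both groups. The differences were -0.49 in air and -0.98 in pollen. In air the probe for ENST00000481132 differed by 0.13 (SE 0.15), which is less than its SE, and so did not show this fall. In air the call of the probe for NM_006287 was lost without replicate 2 of 6h50 min (limma adjusted p of 0.0843) and without replicate 3 of 24 h (0.0664), and with slide as a random block (0.0843).

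**Figure D2:**
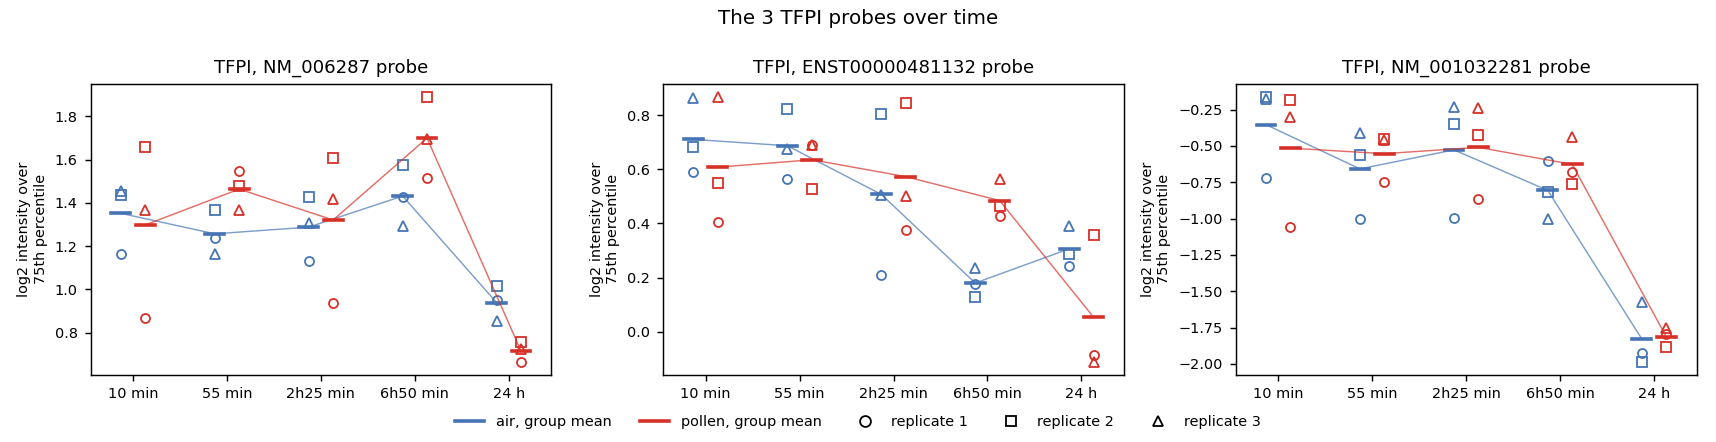
Log2 level relative to the 75th percentile of the array (y axis) of the 3 TFPI probes at the 5 times (x axis, not to scale) in air and pollen, with 1 symbol per array and bars for group means. The probe for NM_001032281 is at -1.57 or lower on all 6 arrays at 24 h and at -1.06 or higher on all earlier arrays.

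PLAU, the gene of urokinase, had its highest means at 2h25 min and 6h50 min in both groups. Its brighter probe was at 3.97, 4.18 and 3.65 in pollen at 2h25 min and at 3.56, 3.89 and 3.50 in air. The groups overlapped, although pollen was higher in 3 of 3 pairs, and the difference of 0.29 (SE 0.13) was not called, with a limma adjusted p of 1.00. By the dimmer probe it was 0.13 (SE 0.21), with pairs at -0.19, 0.56 and 0.019. Leaving out 1 array, the brighter probe gave from 0.16 without pollen replicate 2 to 0.43 without pollen replicate 3. From 55 min to 2h25 min in pollen it differed by 0.57 (SE 0.13, limma adjusted p of 0.0638), which was called with slide as a random block (0.0325). From 6h50 min to 24 h it fell by 0.56 on the log2 scale in pollen and by 0.46 in air, and limma called both, with adjusted p of 0.00164 and 0.00633. With slide as a random block the call in air was lost (0.0571) and that in pollen kept (0.0225). The arrays of 6h50 min and of 24 h lie on different slides, so that the block cannot tell slide from time in this step. At 24 h the 6 arrays lay between 3.18 and 3.32. The dimmer probe, nearer the middle of the same transcript, fell by 0.78 in pollen over that step, which was called without the slide block and not with it (limma adjusted p of 0.0588), and differed by -0.36 (SE 0.21) in air, which was not.

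PLAT, the other activator, was not called in pollen against air at any time, with differences from -0.02 to 0.17 (SE 0.16). It was lower at 24 h, at -0.54, -0.47 and -0.54 in air and at -0.34, -0.47 and -0.27 in pollen. At 6h50 min it was at 0.16, -0.07 and -0.33 in air and at -0.01, 0.07 and 0.10 in pollen. Within each group every 24 h array lay below every 6h50 min array. The differences of -0.44 and -0.41 were called, with limma adjusted p of 0.0338 and 0.0482, and both calls were lost with slide as a random block (0.139 and 0.178).

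PLAUR, the urokinase receptor, was at its lowest at 6h50 min in air, with -1.88, -1.90 and -1.76. In pollen it was at -1.72, -1.44 and -1.65, above the air arrays, with a difference of 0.24 (SE 0.21) that was not called. At 2h25 min it was at -1.43, -0.93 and -0.85 in air and at -1.42, -0.59 and -0.90 in pollen, with replicate 1 the lowest in both. From 2h25 min to 6h50 min it fell by 0.78 on the log2 scale in air and by 0.63 in pollen, and limma called both, with adjusted p of 0.00682 and 0.0227. The call in pollen was lost without replicate 2 or 3 of 2h25 min (-0.44 and -0.60) and without replicate 1 or 3 of 6h50 min (-0.58 and -0.61), with limma adjusted p from 0.0569 to 0.142. With slide as a random block the call in pollen was lost too (0.104), and that in air kept (0.0454). The arrays of 6h50 min lie on a slide of their own, so that the block cannot tell slide from time here. From 6h50 min to 24 h PLAUR was called higher in air, by 0.53 (SE 0.21), a call lost with slide as a random block (limma adjusted p of 0.195). In pollen it differed by 0.04 (SE 0.21). The difference between these effects was -0.49 (SE 0.29), with a limma adjusted p of 1.00.

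The protease inhibitor SERPINE2 was at -2.30, -2.27 and -2.27 in pollen at 2h25 min and at -2.57, -2.39 and -2.57 in air. The groups did not overlap, but the difference of 0.23 (SE 0.21) was close to its SE and was not called. From 6h50 min, when air was at -3.11, -2.98 and -2.62, to 24 h, when it was at -1.97, -2.73 and -2.06, it rose by 0.65 (SE 0.21), and in pollen it rose by 0.62 (SE 0.21), both called by limma with adjusted p of 0.0156 and 0.0234. With slide as a random block neither was called (0.0736 and 0.0988). These calls were lost in air without replicate 1 of 6h50 min (0.55) or replicate 1 or 3 of 24 h (0.51 and 0.55), and in pollen without replicate 1 or 2 of 6h50 min (0.61 and 0.59) or replicate 1 or 3 of 24 h (0.52 and 0.48). SERPINB2 was near the lower end of the scale on every array, between -9.43 and -7.33 by the probe for ENST00000404622 and between -9.65 and -7.82 by that for NM_002575. No fold is given for it, since it was not well above background in any group.

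**Figure D3:**
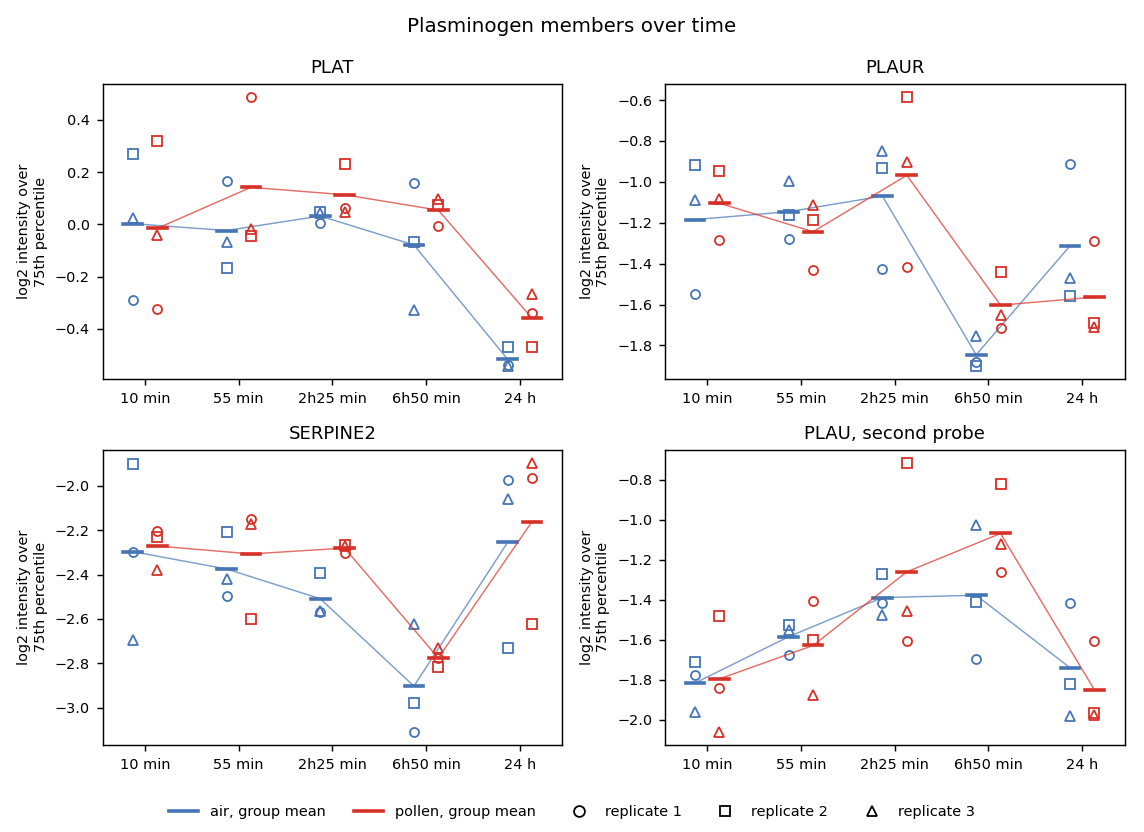
Log2 level relative to the 75th percentile of the array (y axis) of PLAT, PLAUR, SERPINE2 and the dimmer PLAU probe at the 5 times (x axis, not to scale) in air and pollen, with 1 symbol per array and bars for group means. PLAUR is lowest in air at 6h50 min and SERPINE2 is higher at 24 h than at 6h50 min in both groups.

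Between neighbouring times the calls of members lay in the later steps. From 10 min to 55 min 0 members were called in air and 0 in pollen, against 0.187% and 0.841% of all probes, and from 55 min to 2h25 min 0 and 0, against 0.0156% and 0.202%. From 2h25 min to 6h50 min 1 member was called lower in air (PLAUR) and 2 in pollen (PLAUR and THBD), against 32.4% and 31% of all probes. From 6h50 min to 24 h 5 of 8 were called in air, 2 higher (SERPINE2 and PLAUR) and 3 lower (PLAU, PLAT and TFPI), against 40.5% of all probes. In pollen 5 of 8 were called over that step, SERPINE2 higher and F3, PLAU, PLAT and TFPI lower, against 36.2%. The arrays of 6h50 min all lie on a slide that holds no other time, so that slide and time cannot be told apart in these steps. With slide as a random block the sum of calls over the 4 steps in air went from 6 to 1, and in pollen from 7 to 5. The 5 in pollen include PLAU from 55 min to 2h25 min (limma adjusted p of 0.0325), which was not called without the block.

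The median difference between pollen and air over the members was furthest from 0 at 2h25 min and 6h50 min. At 2h25 min all 8 members tested had a higher mean in pollen than in air, and the median log2 difference was 0.26, against -0.03 over all probes. In 4 of the 8 (F3, THBD, TFPI2 and SERPINE2) no array of pollen overlapped with air, where 2.85% of all probes had every pollen array above every air array. At 6h50 min all 8 were higher on the mean again, the median was 0.23 against 0.00 over all probes, and 3 of 8 (F3, TFPI2 and PLAUR) did not overlap, against 6.51%. At 55 min the median was 0.16 and 2 of 8 (F3 and TFPI) lay wholly above air, against 4.73% of the 23921 probes with a value on every array of that time. At 10 min it was -0.04, with no member apart. At 24 h it was -0.0012, and 2 of 8 (F3 and TFPI) lay wholly below air, against 3.47%. The members were chosen with earlier results of these data known, and their values come from the same arrays. These counts and medians are therefore a description and not a test of the set.

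**Figure D4:**
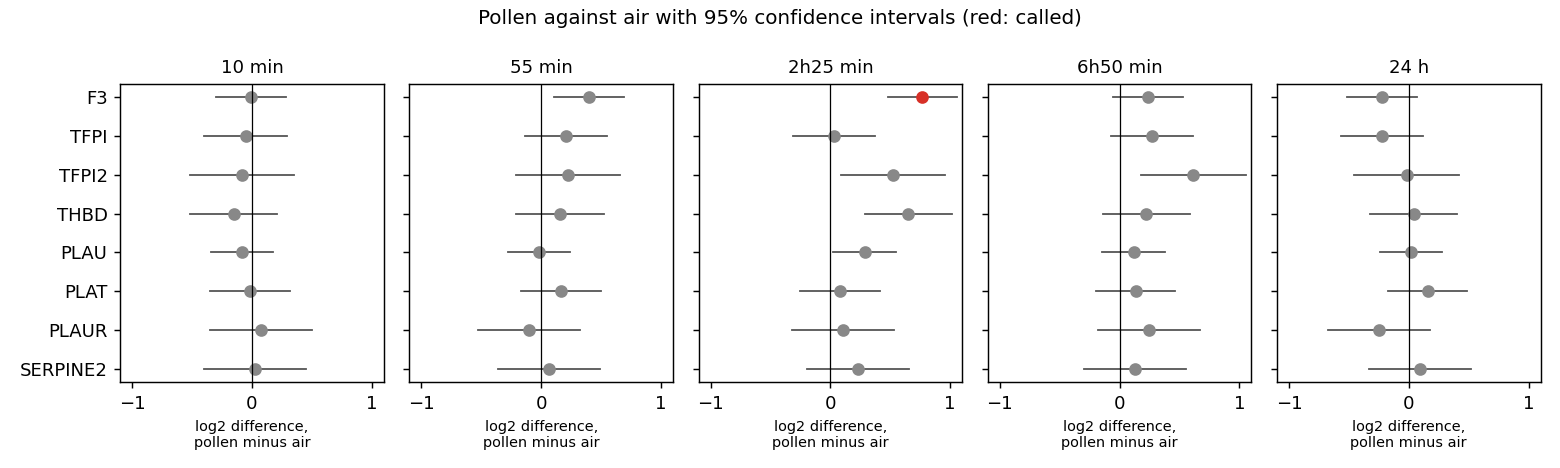
Log2 difference between pollen and air (x axis) of the 8 members tested (y axis), each by its brightest probe, at the 5 times, with 95% confidence intervals from limma. Red marks the 1 difference that was called, F3 at 2h25 min with 0.77. All 8 points lie above 0 at 2h25 min and at 6h50 min.

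Over the 10 group means, F3 varied most like PLAU (Pearson r = 0.80 by the brighter and 0.81 by the dimmer probe) and THBD (r = 0.72), then TFPI2 (r = 0.65), and THBD varied most like TFPI2 (r = 0.85). These means share the arrays, their scaling and the times, and the values are a description. Among 14636 gene names well above background on all arrays, those outside the members and the pathway list with the most similar means were ANXA1 (r = 0.96), ZFP36L2 (r = 0.94), PIM1 (r = 0.94), BCAR1 (r = 0.93) and IRF1 (r = 0.93). Of these PIM1 was called in pollen against air at 2h25 min, with a log2 difference of 0.68 and a limma adjusted p of 0.0418.

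Among the other genes of coagulation and plasminogen handling, 32 were tested: 9 of 14 of coagulation, 4 of 8 anticoagulants, 3 of 4 receptors and 16 of 20 of the plasminogen system. Of these 32, 0 were called in pollen against air at each of the 5 times. At 2h25 min 14 of the 32 were higher on the mean in pollen, with a median log2 difference of -0.01. The furthest from 0 were SERPINI1, an inhibitor of plasminogen activators (0.41, SE 0.26), and F2RL1, the receptor PAR2 (0.25, SE 0.15), on the higher side, and F11, coagulation factor XI, and VWF, von Willebrand factor (-0.78, SE 0.32), on the lower side. F11 was well above background on 1 air array and 0 pollen arrays at that time, so that no value is given for it. From 10 min to 24 h 13 of the 32 were called lower in air and 0 higher, and in pollen 8 lower and 1 higher, where 37.5% and 35.3% of all probes were called in either direction. Of all 32100 probes 6418 were called lower and 5620 higher in air, and 6260 lower and 5082 higher in pollen. Called lower in both were VWF, GGCX, the enzyme that carboxylates coagulation factors, and the plasminogen binding proteins ENO1, KRT8 and ANXA2, besides SERPINB6. GGCX differed by -0.77 (SE 0.092) in air and by -0.50 (SE 0.092) in pollen, and VWF by -0.82 (SE 0.32) and -2.00 (SE 0.32), where 2 of the 3 pollen arrays of 24 h had it well above background. The other 4 shared genes differed by -0.27 to -0.81. Called in air alone were PROCR, the endothelial protein C receptor (-0.45), PROS1, protein S (-0.67), SERPINI1 (-1.21), SORL1 (-0.67), PLGRKT (-0.46), S100A10 (-0.44) and MST1 (-0.29). Called in pollen alone were PROC, protein C (-0.86), and SERPING1, the C1 inhibitor (-0.93). Whether air and pollen differ in these changes was not tested from 10 min to 24 h. Slide and time cannot be told apart for these genes either. From 6h50 min to 24 h 6 of the 32 were called higher and 5 lower in air, and 6 higher and 4 lower in pollen. Of all probes 40.5% and 36.2% were called in either direction. Among the genes called higher was F2R, the thrombin receptor PAR1, by 0.88 (SE 0.20) in air and by 1.02 (SE 0.20) in pollen. The 1 gene called higher in pollen from 10 min to 24 h was VLDLR, which takes up complexes of urokinase and its inhibitors, with 0.33 (SE 0.12).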

How the data were processed

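The authors deposited spot intensities of 30 one-colour arrays, which per the file headers Feature Extraction 11.0.1.1 had background subtracted and detrended. They also deposited a table of log2 intensities, preprocessed with limma per the methods. Of its 30 columns 24 match their own array best and 6, all at 24 h, another array of the same group; it served as an alternative. In R 4.3.3 with data.table (version 1.17.8) and limma 3.58.1, spots marked uneven or as outliers were left out, spots of a probe averaged, put on the log2 scale and the 75th percentile of the array over the 33873 probes on both designs subtracted. A single limma fit took all arrays, with a mean for each of the 10 groups (20 residual and 2.35 prior degrees of freedom). A gene stands by its brightest probe that was tested. Replicate numbers pair the arrays at 10 min, 2h25 min and 24 h, where every correlation of deviations was over 0.1, from 0.30 to 0.75. At 55 min and 6h50 min the lowest was -0.07 and -0.03. P-values come from limma throughout. Contrasts are pollen against air at each time, neighbouring times and 24 h against 10 min within a group, and differences of the pollen effect. All members are named. Between 44.7% and 63.2% of probes were well above background on an array, and the number of arrays limits the precision. The members, lists and tests were chosen with earlier results of these data known. The fit was also run on simulated data with independent noise on each array. That run holds no slide or replicate effects and cannot test for them.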

Additional observations from a re-analysis of the deposited data

How the results depend on the processing

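F3 at 2h25 min stayed higher in pollen under every alternative run, but its call was lost under several: 0.80 with each array scaled over its own probes (limma adjusted p of 1.00), 0.70 in the deposited table (0.915), 0.77 without the filter (0.147), 0.73 with array weights (0.0842), 0.77 with the replicate block (0.105), 0.77 with the arrays of each time fitted alone (1.00), 0.69 with dim areas left out as planned (0.264) and 0.98 within the slide of replicates 1 and 2 (1.00, added after seeing the data). Under each of these the count of members called went from 1 to 0. It was kept under quantile normalization (0.76), normexp with quantile normalization (0.71), slide as a random block (0.77) and probes above background on all arrays (0.77). The planned rule for dim areas took 94.3% of the spots of air replicate 3 at 6h50 min and the F3 spot of air replicate 1 at 2h25 min. After this had been seen, the rule was run with deviations centred on each array, by which no member spot was left out, and F3 was called with 0.77 (0.0429). Leaving out an array, F3 ranged from 0.58 to 0.89 and the count from 0 to 1.

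F3 at 55 min turned to -0.016 with scaling over own probes. TFPI from 6h50 min to 24 h in air turned to 0.13 by the probe for ENST00000481132. The count from 10 min to 24 h in air, 1, was 0 with scaling over own probes and slide as a random block, 2 with quantile normalization, with either other TFPI probe and with the mean of the probes, and 3 with normexp, with probes above background on all arrays and with array weights. In pollen, 1 became 0 with own probes and 2 with array weights. Without 1 array both ranged from 0 to 2. The sum over neighbouring times, 6 in air and 7 in pollen, was 0 and 3 with own probes and 1 and 4 in the deposited table, and 1 in air with slide as a random block. Without 1 array it ranged from 3 to 7 in air and from 4 to 8 in pollen. The cause was not tested. In pollen against air at 10 min, 55 min, 6h50 min and 24 h and in the differences of the effect the count was 0 under every alternative, the replicate block (0) included.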
